A study of Oryctolagus cuniculus with 3 samples.

Results

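The genes described here are 38 genes of amino acid supply: the cytoplasmic aminoacyl-tRNA synthetases, the regulators of the amino acid stress response, and enzymes that make asparagine, serine, glycine, proline and cysteine or run the folate cycle. A gene belongs if the gene-name column of the tables carries its symbol, with a final 1 also accepted for synthetases. By that rule 36 of the 38 had a row, among 20536 gene names in all: 18 synthetases and 18 other genes. CARS and FARSA were not analysed under those names. All 36 reached the minimum of 1 CPM (fragment counts scaled to a common library size) in at least 1 library, so none was lost to the filter on low values, and 35 of them had at least 5 CPM in all 3 libraries.

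RNA was sequenced from RCE1(5T5), a rabbit corneal epithelial cell line, at 3 stages of culture: day 4, when the cells are non-differentiated, day 6, when they are committed, and day 10, when they are terminally differentiated. Every culture shared the same medium, with fetal calf serum, EGF, insulin, cholera toxin, hydrocortisone, transferrin, triiodothyronine and adenine. All were also started on a feeder layer of mouse 3T3 fibroblasts, treated with mitomycin C, that was detached with EDTA before the RNA was taken. There was 1 library per stage, so no difference below has a replicate check, no test was possible, and stage, day and library cannot be told apart.

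Aminoacyl-tRNA synthetases attach each amino acid to its transfer RNA, and some of them sit together in the multisynthetase complex while others work free in the cytosol. When amino acids run short or the endoplasmic reticulum is stressed, kinases phosphorylate the initiation factor eIF2 and the transcription factor ATF4 is made; in other mammalian cells ATF4 raises many synthetases, asparagine synthetase, the serine pathway and mitochondrial folate enzymes. The serine pathway runs from a glycolytic intermediate through PHGDH, PSAT1 and PSPH, and serine then feeds its carbon into folate through the SHMT enzymes. In a stratified epithelium such as the cornea, these pathways supply both the dividing basal cells and the cells that leave the cycle to differentiate.

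The libraries held 10171693, 12582706 and 10899578 fragments on days 4, 6 and 10. The epithelial keratin KRT5 was at 15649.6, 23374.3 and 13552.4 CPM on days 4, 6 and 10, and the corneal keratin KRT3 at 149.6, 954.0 and 2018.0 CPM. Other epithelial markers did not all follow KRT3. PAX6, with 42.2, 127.1 and 358.0 CPM, KRT12 and KRT15 were highest on day 10. TP63, with 55.8, 161.6 and 119.7 CPM, was highest on day 6. CDH1, with 291.2, 208.7 and 154.8 CPM, and EPCAM, with 127.2, 95.1 and 95.3 CPM, were highest on day 4. KRT14 was not analysed here. The 20 fibroblast markers summed to 7851.9, 5063.6 and 3186.5 CPM on days 4, 6 and 10. On day 10, 16 of the 19 measured were at least 2-fold lower than on day 4 and 1, THY1, was higher. That is 84.2% and 5.26%, where 15.8% of all measured genes were lower and 17.1% higher. LUM had no fragment in any library. The part of these markers in the results below was not tested. The melanocyte genes MLANA, TYR and DCT, the leukocyte genes TYROBP and FCER1G and the endothelial gene PECAM1 also had no fragment in any library. Of the other genes on those lists, PMEL, a melanosome gene, had 1.47, 7.80 and 28.5 CPM and CD68, a lysosomal gene of macrophages, had 5.60, 25 and 68.0 CPM on days 4, 6 and 10, both highest on day 10. PTPRC stayed between 16 and 22 fragments and VWF between 2 and 5. The part of these genes in the results was not tested either. In bulk RNA, fewer cells of a type and less RNA per cell cannot be told apart.

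Many more members were lower than higher on day 10, while few had moved by day 6. Below, a gene rose or fell when log2(CPM + 1) differed by at least 1 between 2 libraries, that is by 2-fold. On day 6 against day 4, 5 of 36 members rose and 2 fell, which is 13.9% and 5.56% of them, where 8.06% of all 12818 measured genes rose and 6.73% fell. On day 10 against day 6, 1 rose and 16 fell, which is 2.78% and 44.4%, where 8.25% of all measured genes rose and 7.1% fell. Over the whole interval, day 10 against day 4, 2 rose and 17 fell, which is 5.56% and 47.2%, where 17.1% of all measured genes rose and 15.8% fell. The median difference of the members was 0.01, -0.95 and -0.93 on the log2 scale in these comparisons, and that of all measured genes 0.00, -0.01 and 0.01. The comparisons share libraries and are not separate results. With the authors' TPM (a transcript level normalized for length) in place of CPM, 1 member rose and 2 fell on day 6 against day 4, with 4.53% and 13.2% of all genes, and 2 rose and 22 fell on day 10 against day 4, with 11.2% and 23.9% of all genes.

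**Figure D1:**
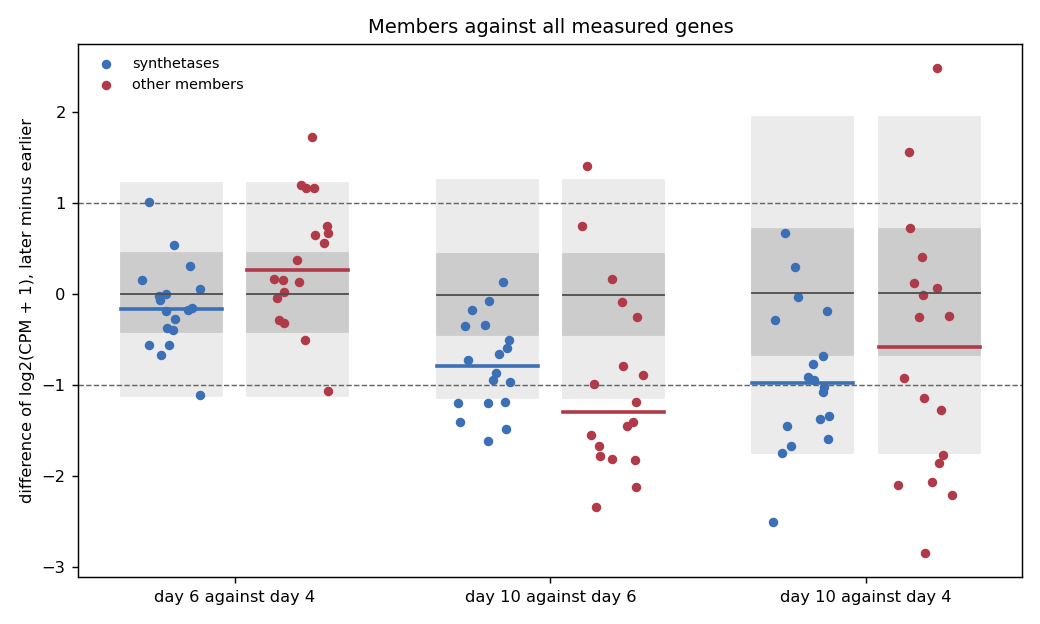
Each point is a member's difference of log2(CPM + 1), later minus earlier library, with synthetases at left in blue and the other members at right in red for each comparison; coloured bars are their medians, dashed lines mark 2-fold, and the grey bands hold the 5th to 95th (light) and 25th to 75th percentile (dark) of all measured genes. The synthetase median was -0.16 on day 6 against day 4, -0.79 on day 10 against day 6 and -0.98 on day 10 against day 4, and the median of the other members was 0.27, -1.29 and -0.59.

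Day 10 was the lowest of the stages for 28 of the 36 members (77.8%), against 38.7% of all measured genes, day 4 for 8 (22.2%), against 39.2%, and day 6 for 0, against 22.1%. The highest level fell on day 4 for 18 members, on day 6 for 14 and on day 10 for 4, which is 50%, 38.9% and 11.1% of them, against 38.7%, 22.8% and 38.6% of all measured genes. Those 4 were QARS, DDIT3, PSAT1 and CBS. Across the 2 steps, 12 members held within 2-fold to day 6 and then fell, 2 fell at each step, 2 rose and then fell, 3 rose and then held, 1 held and then rose, and 16 stayed within 2-fold at each step. Holding and then falling applied to 33.3% of the members and 5.62% of all measured genes, falling at each step to 5.56% and 1.11%, and rising and then falling to 5.56% and 0.374%. Rising and then holding applied to 8.33% of the members and 6.04% of all measured genes, holding and then rising to 2.78% and 6.12%, and staying within 2-fold to 44.4% and 73.5%.

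Of the cytoplasmic synthetases 9 of 18 were at least 2-fold lower on day 10 than on day 4, and none was 2-fold higher. In that comparison 15.8% of all measured genes were lower and 17.1% higher. On day 6 against day 4, 1 of 18 rose and 1 fell, 5.56% each, near the 8.06% and 6.73% of all measured genes. The synthetase median was -0.16, or -0.32 with no TMM factor and -0.49 with TPM. On day 10 against day 6, 0 rose and 6 fell (MARS, YARS, FARSB, AARS, NARS and VARS), and the other 12 did not reach 2-fold. The 6 are 33.3%, where 7.1% of all measured genes fell and 8.25% rose. The 18 synthetases together summed to 4230.0, 4043.5 and 2646.8 CPM on days 4, 6 and 10, a day 10 sum of 0.626 times that of day 4. On the TPM scale they took 0.185%, 0.146% and 0.0939% of the transcripts on these days.

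**Figure D2:**
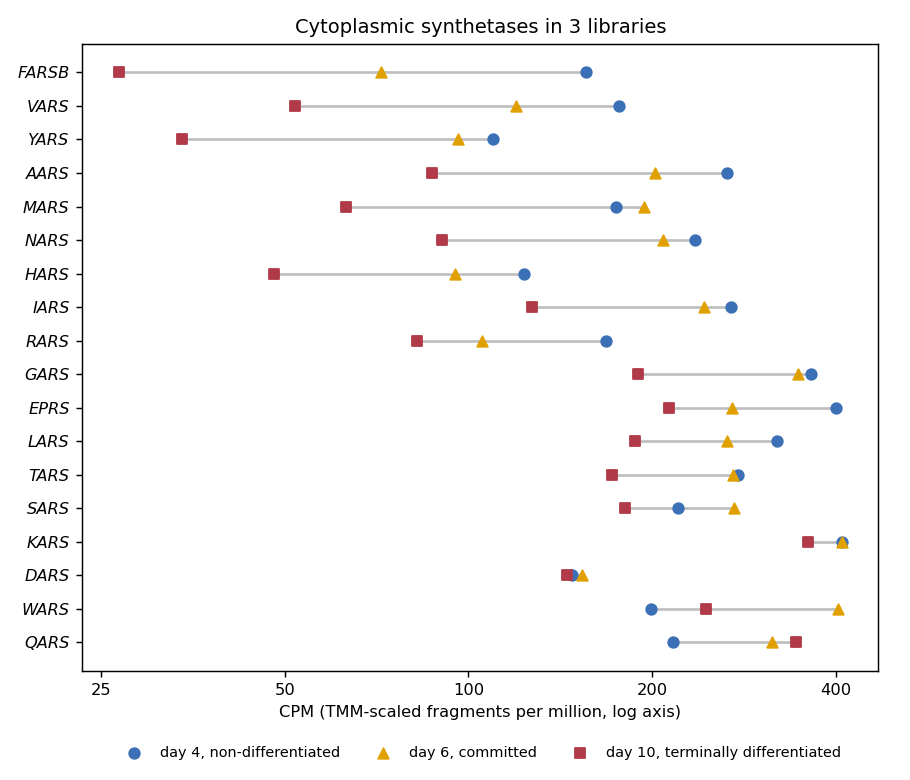
Level of each of the 18 cytoplasmic synthetases in the 3 libraries, in CPM on a log axis, ordered from the largest fall (top) to the largest increase (bottom) on day 10 against day 4. Day 10 is the leftmost symbol in all but 2 rows, QARS and WARS, and FARSB moved furthest, to 26.7 CPM on day 10, against 155.8 CPM on day 4.

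FARSB, the beta subunit of phenylalanyl-tRNA synthetase, had 155.8, 71.8 and 26.7 CPM on days 4, 6 and 10. It fell at each step, and its day 10 level was 5.85-fold lower than that of day 4, with a 95% counting interval of 5.15 to 6.65. That interval, and every one below, is an exact (Clopper-Pearson) interval from the fragment counts in both libraries. It covers counting error and not the spread between cultures. VARS, which charges valine, had 176.3, 119.6 and 51.9 CPM and fell 3.40-fold (3.09 to 3.74) on day 10 against day 4. YARS, which charges tyrosine, had 109.9, 96.0 and 33.9 CPM and fell 3.24-fold (2.88 to 3.66). Both lost more of their level after day 6 than before it.

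AARS, the alanyl enzyme, had 264.9, 201.8 and 87.3 CPM on days 4, 6 and 10, and fell 3.03-fold (2.82 to 3.27) on day 10 against day 4. MARS, which charges the initiator as well as the elongator methionine tRNA, had 174.2, 193.8 and 63.0 CPM. Its day 6 level was the highest of its 3 values, and its fall of 3.08-fold (2.82 to 3.36) on day 10 against day 6 was larger than that of any other synthetase in that step. NARS, the asparaginyl enzyme, had 234.8, 208.6 and 90.4 CPM and HARS, the histidyl enzyme, 123.3, 95 and 48 CPM. They fell 2.60-fold (2.41 to 2.80) and 2.57-fold (2.32 to 2.85) on day 10 against day 4.

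IARS and RARS, both in the multisynthetase complex, passed 2-fold only narrowly and only over the whole interval. IARS, the isoleucyl enzyme, had 269.5, 243.5 and 126.9 CPM on days 4, 6 and 10, 2.12-fold lower (1.99 to 2.27) on day 10 than on day 4. RARS, the arginyl enzyme, had 168.2, 105.2 and 82.2 CPM, 2.05-fold lower (1.89 to 2.22). RARS lost more of its level by day 6 than after it, and its difference of -1.02 came to -0.99 with a pseudocount of 5.

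WARS, the tryptophanyl enzyme, was the 1 synthetase that rose at commitment. It had 199.1, 403.1 and 244.8 CPM on days 4, 6 and 10, and rose 2.03-fold (1.92 to 2.13) on day 6 against day 4. The difference of 1.01 was at the threshold: it was 0.99 with DESeq2 size factors, 0.85 with no TMM factor and 0.66 with TPM. QARS, SARS, MARS and DARS were also above 0 in that step, by 0.54, 0.31, 0.15 and 0.06, under 2-fold. WARS is known as an interferon-induced gene. On day 10 it was 1.65-fold lower (1.57 to 1.73) than on day 6.

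QARS, the glutaminyl enzyme, was the other synthetase that was higher on day 10 than on day 4. It had 216.5, 314.7 and 344.6 CPM on days 4, 6 and 10, a CPM ratio of 1.59 (1.51 to 1.68) for day 10 over day 4, which does not reach 2-fold. QARS was close to FARSB in TPM on day 4, at 1.04 times its level, and at 3.27 and 10.0 times its level on days 6 and 10. The pair joins the highest and the lowest synthetase difference on day 10 against day 4, 0.67 and -2.5, so its widening follows from that choice. The remaining 7 synthetases, DARS, EPRS, GARS, KARS, LARS, SARS and TARS, passed 2-fold in none of the comparisons. With TPM, EPRS (-1.25), GARS (-1.28), LARS (-1.13) and TARS (-1.06) did pass it on day 10 against day 4. With no TMM factor EPRS (-1.04) and GARS (-1.07) did. These settings also moved the median of all genes in that comparison, to -0.31 and -0.11. By CPM with TMM factors the log2 difference of these 7 on day 10 against day 4 ran from -0.94 for GARS to -0.03 for DARS. DARS, the aspartyl enzyme, had 147.6, 153.5 and 144.8 CPM, and its ratio of 0.981 for day 10 over day 4 has an interval that includes 1 (0.914 to 1.05).

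Sorting the synthetases by where they work gave different counts. Of the 8 in the multisynthetase complex, 1 fell on day 10 against day 6 and 3 on day 10 against day 4. Those are 12.5% and 37.5%, with medians of -0.35 and -0.84. Of all measured genes 7.1% and 15.8% fell in these comparisons, and the 12.5% rests on 1 gene. Of the 10 measured outside it, 5 and 6 fell, with medians of -1.08 and -1.35. By structural class, 5 of 8 class I enzymes (62.5%) and 4 of 9 class II enzymes (44.4%) fell on day 10 against day 4. On day 10 against day 6, 3 of 8 (37.5%) and 3 of 9 (33.3%) fell. EPRS, which joins both classes, was set aside. Of the 11 measured synthetases on a list of ATF4 targets known from other mammalian cells, 4 fell in that step (36.4%, median -0.87). Of the other 7, 2 fell (28.6%, median -0.35). On day 10 against day 4 the order of the shares was the reverse. Then 5 of the 11 (45.5%) and 4 of the 7 (57.1%) fell, with medians of -0.94 and -1.02. The difference between any of these subgroups was not tested.

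KARS, MARS, SARS and WARS each sum 2 coding sequences filed under 1 name. Within each gene the coding sequences gave nearly the same ratio of day 10 over day 4: 0.867 and 0.891 for KARS, 0.364 and 0.360 for MARS, 0.817 and 0.822 for SARS, and 1.23 for both of WARS. For WARS they carry equal counts, as when reads shared by both are split evenly. LOC100350061 was looked at after the values were seen; RefSeq, in its mOryCun1.1 annotation, gives that gene the symbol CARS1. It had 128.4, 130.3 and 65.7 CPM on days 4, 6 and 10, 1.95-fold lower (1.78 to 2.14) on day 10 than on day 4, and is not counted among the members.

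The regulators of the stress response did not move together. ATF4 had 75.2, 61.8 and 30.5 CPM on days 4, 6 and 10, and fell 2.46-fold (2.16 to 2.81) on day 10 against day 4. On day 10 against day 6 its CPM was 2.02-fold lower (1.77 to 2.31), but the difference of log2(CPM + 1) was -0.99 and did not count as a fall; with a pseudocount of 0.1 it was -1.02. DDIT3, the transcription factor CHOP that is induced under lasting stress, went the other way, with 8.26, 9.29 and 26.3 CPM. It rose 2.83-fold (2.26 to 3.55) on day 10 against day 6 and was the 1 member that rose in that step. In TPM, DDIT3 stood at 0.144, 0.219 and 1.24 times the level of ATF4 on days 4, 6 and 10. ATF4 is controlled largely at translation, and its protein was not measured.

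Genes that lie downstream of ATF4 and DDIT3 in other mammalian cells split as well. TRIB3, a pseudokinase that feeds back on the pathway, had 5.51, 13.6 and 5.46 CPM on days 4, 6 and 10. It rose 2.47-fold (1.83 to 3.38) on day 6 against day 4 and fell 2.49-fold (1.84 to 3.42) on day 10 against day 6, back to its day 4 level within counting error. With a pseudocount of 5 neither step reached 2-fold, at 0.82 and -0.83, and the rise was 0.86 with TPM. CHAC1, which degrades glutathione, had 9.73, 9.87 and 1.51 CPM, the last from 16 fragments. It was level to day 6 and then fell 6.55-fold (3.87 to 11.8). SESN2, a leucine sensor upstream of mTORC1, stayed within 2-fold throughout, at 18.4, 24.2 and 20.2 CPM.

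ASNS, which makes asparagine and is a classic marker of amino acid shortage, peaked at commitment. It had 60.5, 96.9 and 26.8 CPM on days 4, 6 and 10. The day 6 level was 1.60 times that of day 4 (1.45 to 1.76), under 2-fold, and ASNS then fell 3.61-fold (3.17 to 4.12). Its day 10 level was also 2.25-fold lower (1.96 to 2.60) than that of day 4.

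**Figure D3:**
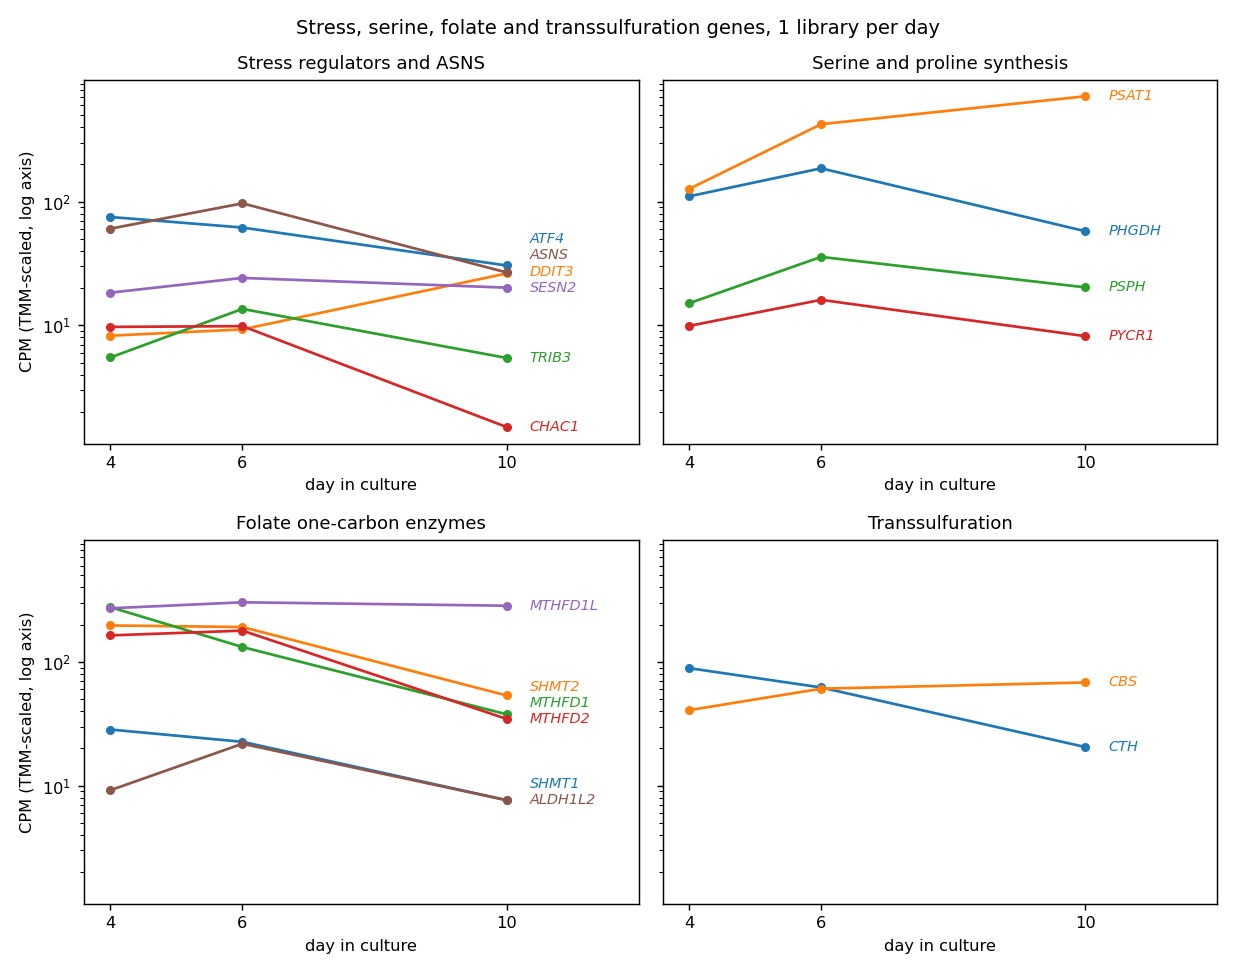
CPM on a log axis against day in culture for the 18 members that are not synthetases, in 4 panels by role, 1 library per day. PSAT1 reaches 710.5 CPM while PHGDH turns down after day 6, and DDIT3 and CHAC1 move apart after day 6. MTHFD1L stays between 270.9 and 302.9 CPM, while the other folate enzymes end at least 2-fold lower than on day 6.

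All enzymes of serine synthesis were higher on day 6 than on day 4, and they parted afterwards. PHGDH, the first and committed step, had 110.4, 186.0 and 57.7 CPM on days 4, 6 and 10. It was 1.68 times (1.57 to 1.81) its day 4 level on day 6, under 2-fold, and fell 3.22-fold (2.95 to 3.53) on day 10 against day 6. PSPH, the last step, had 15.1, 35.8 and 20.3 CPM. It rose 2.38-fold (1.98 to 2.87) on day 6 against day 4 and was 1.76-fold lower (1.49 to 2.08) on day 10 than on day 6. The rise was 0.95 with TPM, under 2-fold.

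PSAT1, the aminotransferase between them, had its highest level on day 10. It had 126.5, 422.6 and 710.5 CPM on days 4, 6 and 10, and rose 3.34-fold (3.15 to 3.55) on day 6 against day 4 and 5.62-fold (5.30 to 5.95) on day 10 against day 4. Its level on day 10 was 1.68 times that of day 6 (1.62 to 1.74), under 2-fold. The 5.62-fold rise was the largest rise of any member. By TPM it ranked 1397, 510 and 331 among all gene names on days 4, 6 and 10, with 107.3, 288.4 and 476.3 TPM. PSAT1 stood at 1.81, 3.26 and 17.3 times the TPM of PHGDH on these days, so this ratio of RNA levels widened most after day 6. The pair joins the member with the largest rise to a member that fell after day 6, and the widening follows from those values. Protein and pathway activity were not measured.

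Most folate enzymes fell after commitment. On day 6 against day 4, 1 of 6 rose and 1 fell, 16.7% each, where 8.06% of all measured genes rose and 6.73% fell. On day 10 against day 6, 0 rose and 5 fell (83.3%), where 8.25% of all measured genes rose and 7.1% fell. On day 10 against day 4, 0 rose and 4 fell (66.7%), where 17.1% of all measured genes rose and 15.8% fell. The median difference of the folate enzymes was -1.61 on day 10 against day 6. The 6 together summed to 945.9, 849.1 and 425.2 CPM on days 4, 6 and 10.

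In the cytosolic arm, MTHFD1, a trifunctional enzyme of folate interconversion, had 276.8, 131.8 and 37.7 CPM on days 4, 6 and 10. It fell at each step, 7.35-fold (6.62 to 8.17) on day 10 against day 4, the largest fall among all members. SHMT1, the cytosolic enzyme that splits serine to glycine, had 28.4, 22.6 and 7.63 CPM and fell 3.73-fold (2.91 to 4.82) on day 10 against day 4.

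In the mitochondrial arm the start of the pathway fell late. SHMT2, which splits serine in mitochondria, had 196.9, 191.2 and 53.5 CPM on days 4, 6 and 10, and fell 3.57-fold (3.26 to 3.93) on day 10 against day 6. MTHFD2, the next enzyme, had 163.6, 178.8 and 34.6 CPM and fell 5.17-fold (4.63 to 5.79) in the same step. Both had changed little between day 4 and day 6, with ratios of 0.971 (0.915 to 1.03) and 1.09 (1.03 to 1.16). The interval of SHMT2 includes 1, and that of MTHFD2 lies above it.

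MTHFD1L, which releases formate from mitochondria at the end of that arm, did not follow. It had 270.9, 302.9 and 284.2 CPM on days 4, 6 and 10, and its day 10 level was 1.05 times that of day 4, with an interval that includes 1 (0.997 to 1.1). Its 3 coding sequences gave ratios of 1.06, 1.04 and 1.03. In TPM it stood at 0.691, 0.697 and 3.39 times the level of MTHFD2 on days 4, 6 and 10. ALDH1L2, which burns mitochondrial formyl-folate to carbon dioxide and is low here, had 9.18, 21.8 and 7.63 CPM. It rose 2.38-fold (1.88 to 3.02) on day 6 against day 4 and fell 2.86-fold (2.22 to 3.71) on day 10 against day 6; the rise was 0.92 on the log2 scale with a pseudocount of 5 and 0.80 with TPM.

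Of the enzymes of cysteine synthesis, CTH fell and CBS did not reach 2-fold. CTH, which cleaves cystathionine to cysteine, had 89.0, 62.1 and 20.5 CPM on days 4, 6 and 10, and fell 4.34-fold (3.74 to 5.04) on day 10 against day 4. CBS, which makes cystathionine, had 40.7, 60.7 and 68.2 CPM, a ratio of 1.67 (1.48 to 1.89) that stays under 2-fold. PYCR1, the mitochondrial enzyme of the last step of proline synthesis, had 9.91, 16.1 and 8.19 CPM. Its highest value was on day 6, and no step reached 2-fold.

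The wider pathway was followed in 6 further lists of genes around the members, of which each count below is for day 10 against day 4. Among 20 measured mitochondrial synthetases and related genes there were 0 risers and 7 fallers (35.0%), where 17.1% of all measured genes rose and 15.8% fell. The median of that list was -0.73, set beside -0.98 for the cytoplasmic enzymes. LARS2, the mitochondrial leucyl enzyme, had 34.8, 17.5 and 8.38 CPM on days 4, 6 and 10. EARS2, the glutamyl enzyme, had 16.7, 6.80 and 4.24 CPM, and MARS2, the methionyl enzyme, 7.71, 5.14 and 1.51 CPM. These 3 had the largest falls of that list. On day 10 against day 6, 1 of the 20 fell, which is 5.0%, near the 7.1% of all measured genes. The difference from the cytoplasmic enzymes was not tested.

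Of 17 measured genes of the synthetase complex and of tRNA handling, 1 rose and 10 fell (median -1.12). That is 5.88% and 58.8%, where 17.1% of all measured genes rose and 15.8% fell. EEF1E1, a scaffold protein of the multisynthetase complex, fell 8.79-fold (6.62 to 11.9), with 44.7, 10.6 and 5.09 CPM on days 4, 6 and 10, most of it before day 6. The tRNA methyltransferase TRMT1 fell 6.65-fold (4.85 to 9.30) and the tRNA-processing nuclease ELAC2 6.12-fold (5.18 to 7.27). GTPBP2, a factor for stalled ribosomes, rose 4.29-fold (3.40 to 5.46), with 8.26, 36.7 and 35.4 CPM.

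Of 33 measured genes of the integrated stress response 7 rose and 6 fell (median -0.15), which is 21.2% and 18.2%, near the 17.1% and 15.8% of all measured genes. SESN3, a sestrin that restrains mTORC1, rose 7.95-fold (6.59 to 9.67), with 11.4, 38.6 and 90.5 CPM on days 4, 6 and 10. The stress-response regulator NUPR1 rose 6.19-fold (4.24 to 9.30), all of it after day 6, and EIF2AK2, the RNA-activated kinase of eIF2, rose 5.45-fold (3.85 to 7.88), with 3.58, 16.3 and 19.5 CPM. EIF2B3, a subunit of the exchange factor of eIF2, fell 4.64-fold (3.93 to 5.51), GCN1, which activates the amino acid-sensing kinase GCN2, fell 3.44-fold (3.17 to 3.73), and HSPA5, the main chaperone of the endoplasmic reticulum, fell 3.10-fold (2.96 to 3.25).

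Of 25 measured amino acid transporters 2 rose and 10 fell (median -0.93). That is 8.0% and 40.0%, where 17.1% of all measured genes rose and 15.8% fell. SLC7A1, which imports arginine and lysine, had 91.2, 35.0 and 12.7 CPM on days 4, 6 and 10, and fell 7.17-fold (5.99 to 8.65). SLC1A5, which imports glutamine, fell 6.43-fold (5.26 to 7.93), and SLC7A5, which imports leucine and other large amino acids, fell 4.79-fold (4.16 to 5.52). SLC6A14, a transporter of neutral and basic amino acids, rose 9.29-fold (7.36 to 11.9), with 7.34, 6.88 and 68.2 CPM. By CPM ratio alone SLC7A8, another importer of neutral amino acids, named after its values were seen, fell further, 8.09-fold (4.18 to 17.5), with 10 fragments on day 10. The other riser was SLC38A9, a lysosomal arginine sensor, at 3.67-fold (2.59 to 5.29).

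Of 20 other measured genes of one-carbon and methionine metabolism 1 rose and 10 fell (median -0.76). Of all measured genes 17.1% rose and 15.8% fell. The purine synthesis enzyme GART fell 6.29-fold (5.59 to 7.10), and MAT2A, which makes S-adenosylmethionine, fell 4.14-fold (3.76 to 4.56). MAT2B, the regulatory partner of MAT2A, rose 3.02-fold (2.70 to 3.40), with 36.3, 67.5 and 109.9 CPM on days 4, 6 and 10. Of 22 measured genes of other amino acid synthesis and breakdown 1 rose and 5 fell (median -0.24), which is 4.55% and 22.7%. The share that fell is near the 15.8% of all measured genes, of which 17.1% rose. ODC1, which starts polyamine synthesis, fell 11.9-fold (10.7 to 13.3), ALDH4A1, of proline breakdown, 2.52-fold (2.29 to 2.78) and GCLC, of glutathione synthesis, 2.51-fold (2.22 to 2.85); OAT, which links ornithine to proline, rose 2.16-fold (2.04 to 2.28).

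**Figure D4:**
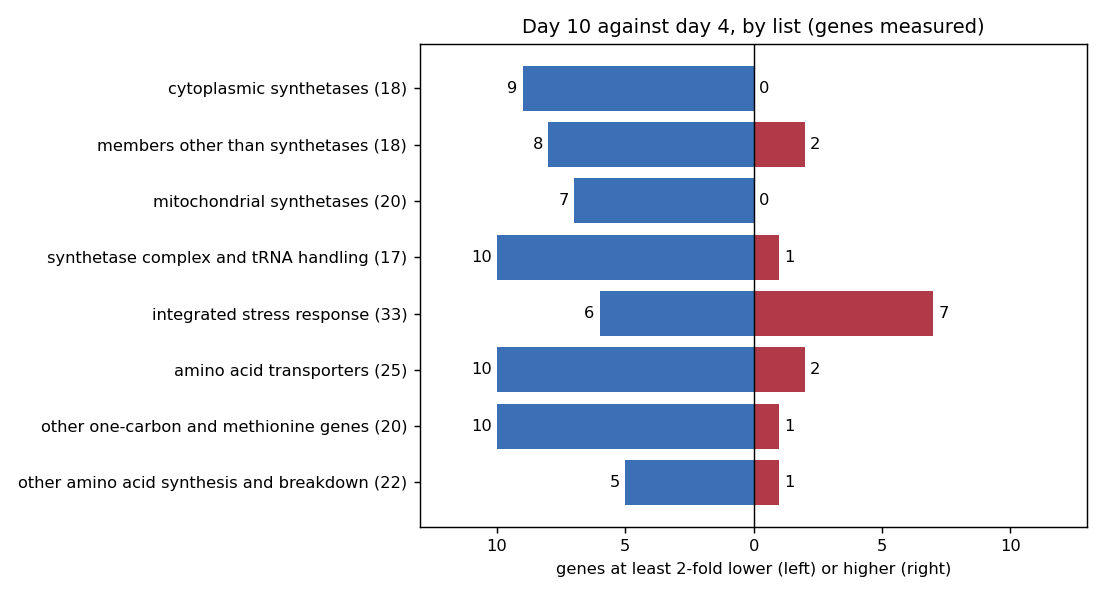
Number of genes at least 2-fold lower (blue, left) or higher (red, right) on day 10 against day 4, for the members by type and for the 6 lists around them, with the number of measured genes in brackets. All lists but 1 hold more fallers than risers; the integrated stress response list has 6 fallers and 7 risers. Of all measured genes 15.8% fell and 17.1% rose in this comparison.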

How the data were processed

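Tables for 3 RNA libraries, 1 per stage, were used. The deposited fragment and read counts per coding sequence are expected counts, many of them fractional; the columns are named so per the file headers. The authors' FPKM and RPKM, normalized for length and depth, and the raw transcript count, a coverage signal, were deposited beside them and not used. The authors' TPM, per the file headers, were used for levels between genes and as an alternative. Per the submitters' processing notes, the genome was OryCun2.0. Overlapping genes cannot be told apart, since the strand setting, like the aligner and counter, is not given in the sources used here.

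Fragment counts were summed per gene name, rounded, and scaled to CPM with TMM factors of 1.071, 0.958 and 0.974 for days 4, 6 and 10 (edgeR 4.0.16, R 4.3.3). Genes with at least 1 CPM in at least 1 library were measured (12818). Differences are of log2(CPM + 1), which understates changes of low genes; folds are CPM ratios with exact 95% Clopper-Pearson intervals, which cover counting error only. The design assumed rounded expected counts, as found. The steps were checked on simulated counts with known changes and counting error only. That check cannot show the spread between cultures. DESeq2 1.42.0 size factors, other pseudocounts, filters, units and a 1.5-fold threshold were tried. Members and lists were chosen with earlier results of these data known. Every member past 2-fold is named with its values, besides ATF4, DDIT3 and WARS; of each further list, up to 3 genes with the largest rise and fall of log2(CPM + 1) on day 10 against day 4. A gene that this rule names is not reported here.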

Additional observations from a re-analysis of the deposited data

How the results depend on the processing

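No paired analysis was possible because each stage has 1 library. Of 43 member differences past 2-fold, 0 changed sign in the 11 alternatives that kept that threshold, and 6 came under 2-fold in at least 1 of them: those of RARS, TRIB3 (in 2 comparisons), ALDH1L2, PSPH and WARS. Among the 11, the changed filters on low values left every member difference as it was and so could not alter it. The 5 members that rose on day 6 against day 4 became 1 with the authors' TPM, 3 with a pseudocount of 5 and 8 at a 1.5-fold threshold, where 4.53%, 3.68% and 19.6% of all genes rose. TPM moved the median of all genes to -0.30 on day 6 against day 4 and -0.31 on day 10 against day 4, and leaving out TMM moved it to -0.14 and -0.11. Centred on those medians, an alternative added after seeing the data, 4 rose and 2 fell on day 6 against day 4, and 2 rose and 17 fell on day 10 against day 4, with either unit. At 1.5-fold, 2 rose and 25 fell on day 10 against day 6, with 19.1% and 19.2% of all genes, and 4 rose and 22 fell on day 10 against day 4, with 29.0% and 27.6% of all genes. The synthetase median lay between -0.49 and -0.16 on day 6 against day 4, between -0.82 and -0.77 on day 10 against day 6, and between -1.33 and -0.96 on day 10 against day 4. CHAC1 on day 10 rests on 16 fragments.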
